A study of Rattus norvegicus with 6 samples.

Results

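Nuclear proline transfer RNAs (tRNAs) gave 11 of the 615 listed tRNA fragments of the rat hippocampus, and these 11 are described here. They are the fragments whose name holds Pro without the prefix of the mitochondrial genome. By name 7 come from tRNA Pro-AGG, 2 from Pro-CGG and 2 from Pro-TGG. The small RNA came from 3 nicotine-treated and 3 saline-treated Sprague-Dawley rats aged 6 to 8 weeks, with 1 hippocampus library per numbered rat. Nicotine is the addictive alkaloid of tobacco, and saline is its vehicle control. Nicotine dose, route and duration were not given in the sources used here, nor was any pooling of animals. The proline tRNAs were chosen by name, but with their CPM in the nicotine and saline libraries already known. That comparison is therefore given here as a description of the members, and its direction is not independent evidence.

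Proline tRNAs read the CCN codons, and their isoacceptors differ in the first base of the anticodon while much of the rest of the molecule is shared. Mature tRNAs are cut by nucleases into defined pieces. Cleavage at the anticodon loop or just before it leaves a long 5′ piece, called tRF-5 or, for the stress-induced forms, tiRNA. Cuts in the T arm leave short 3′ pieces that end in the CCA tail (tRF-3), and trimming of the precursor leaves a trailer (tRF-1). Long 5′ fragments are studied for effects on translation and in stressed neurons.

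The fragment names give their place in the tRNA. tRF-1:32-Pro-AGG-1-M4 covers bases 1 to 32, tRF-58:75-Pro-AGG-1-M4 ends at base 75 with the CCA tail, and tRF-+1:T28-Pro-CGG-1 is a trailer of 28 nt. The 11 members were 6 tRF-5 of 28 to 32 nt, 2 tiRNA of 33 nt, 2 tRF-3 of 17 and 18 nt and 1 trailer. No 5′ fragment of proline tRNAs shorter than 28 nt was listed. The files do not state what the M number in a name means. Among 535 pairs of nuclear 5′ fragments of the same tRNA name and different length, the longer had the smaller M number in 138, the same in 397 and the larger in 0. Among the proline 5′ fragments the names with M5 had 28 and 29 nt, and those with M4 had 30 to 32 nt. Both tRF-3 names also hold M4. At 33 nt the names held no M number and belonged to Pro-CGG and Pro-TGG. A 5′ fragment that stops before the anticodon holds none of its bases, and neither does a tRF-3, which lies after it. The anticodon in the names of the 28 to 32 nt fragments and of the tRF-3 is therefore uncertain. Whether the 33 nt tiRNA hold a base of the anticodon was not checked, since no tRNA sequences were used. The RefSeq annotation of GRCr8, which may not be the build used for the files, names 115 proline tRNA genes, of which 92 carry the anticodon AGG, 4 CGG, 8 UGG and 11 GGG. Genes of different proline anticodons neighbour each other there, such as Trnap-agg12 beside Trnap-ugg3 and Trnap-cgg3 beside Trnap-agg14.

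The values are CPM, read numbers scaled to a library total that the files do not define. The read totals were 90828, 122282 and 128694 in the nicotine libraries and 374763, 154414 and 206221 in the saline libraries. Every nicotine library was shallower than every saline library, so depth and treatment cannot be told apart. A single read was worth 11.01, 8.18 and 7.77 CPM in the nicotine libraries and 2.67, 6.48 and 4.85 CPM in the saline libraries. Proline fragments had 33, 38 and 87 reads in the nicotine libraries and 156, 70 and 139 reads in the saline libraries, 523 in all. Intervals given for reads cover counting error only, since no molecular identifiers are described. The labelled tissue could not be checked against markers, since tRNA fragments mark no cell type. Long tiRNA of Gly, Glu, Val and His tRNAs that abound in blood plasma, a stand-in for blood in the tissue, had 9549.8 to 19888 CPM in the nicotine libraries and 11672 to 17251 CPM in the saline libraries. In bulk tissue, fewer cells of a type and less of a fragment per cell cannot be told apart.

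Proline fragments were a rare part of the listed reads. They took 0.0740%, 0.0542% and 0.143% of them in the nicotine libraries, against 0.0605%, 0.0746% and 0.128% in the saline libraries. The 95% Wilson intervals ran from 0.116 to 0.177 in nicotine 3 and from 0.108 to 0.151 in saline 3, the highest library of each group. Summed over the 11 members, nicotine libraries had 363, 311 and 676 CPM and saline libraries had 416, 453 and 674 CPM. The group means were 450.0 ± 197 CPM in nicotine and 515 ± 139 CPM in saline libraries (n = 3, SD), and the groups overlapped. With 1 library left out, the difference of -64.5 CPM ran from -178 without nicotine 3 to 15.2 without saline 3. It was also above 0 without nicotine 2 (5.13) and with CPM scaled to listed reads (28.6).

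Long 5′ fragments were both the highest and the lowest members. Over all 6 libraries the 32 nt fragment led with a mean of 129 CPM, followed by the 31 nt fragment with 94.0 CPM. The 18 nt tRF-3, the 33 nt tiRNA of Pro-TGG and the 30 nt fragment of Pro-AGG had 56.1, 50.3 and 34.6 CPM. The 33 nt tiRNA of Pro-CGG, the 17 nt tRF-3 and the 29 nt fragment followed with 28.8, 27.5 and 26.5 CPM. The trailer, the 30 nt fragment of Pro-TGG-2 and the 28 nt fragment closed the order with 14.1, 11.5 and 10.3 CPM. The values of each neighbouring pair in this order overlapped over the libraries. Of the 11 members 7 had reads in all 6 libraries. Listed fragments reached 20 CPM in at least 1 library, and 2 members did so in 1 library only, tRF-1:30-Pro-TGG-2 in nicotine 1 and tRF-1:28-Pro-AGG-1-M5 in saline 3.

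**Figure D1:**
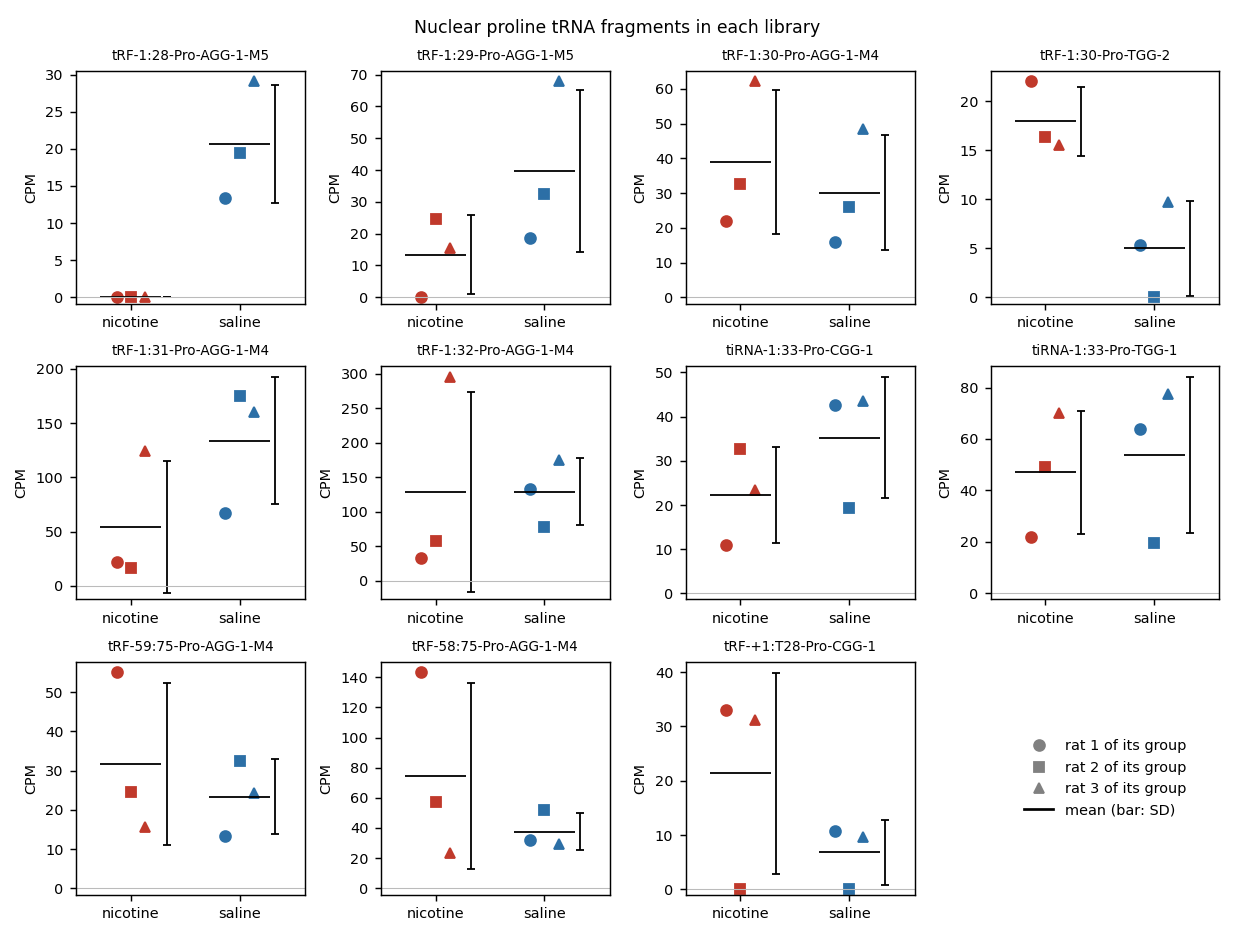
CPM of each of the 11 nuclear proline tRNA fragments (vertical axes, own scale per panel) in the 3 nicotine (left, red) and 3 saline libraries (right, blue), with group means as lines and SD as bars. The 28 nt fragment is at 0 in all 3 nicotine libraries, the 31 nt and 32 nt fragments are far higher in nicotine 3 than in nicotine 1 and 2, and the 17 and 18 nt fragments are highest in nicotine 1.

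The make-up of the proline fragments did not use the treatment groups and was compared with the other 469 nuclear fragments within each library. The 5′ fragments of 28 to 32 nt took 59.5% ± 19.0 of the proline reads and 82.1% ± 4.18 of the other nuclear reads (SD, n = 6). The proline share was lower in 6 of 6 libraries, by 22.6 percentage points on average (exact two-sided sign-flip permutation p = 0.0312, adjusted p = 0.0469 over 3 classes). CCA-ended tRF-3 took 20.7% ± 18.2 of the proline reads and 4.18% ± 1.596 of the others (SD, n = 6). Their share was higher in 6 of 6 libraries, by 16.5 points (exact permutation p = 0.0312, adjusted p = 0.0469). The trailer took 2.95% ± 3.47 of the proline reads, and trailers took 5.32% ± 1.89 of the others, with the proline share lower in 5 of 6 libraries (SD, n = 6, exact permutation p = 0.0938, adjusted p = 0.0938). The p of 0.0312 is the smallest that 6 libraries can give, and it needs the same sign in all 6. In nicotine 3 that sign lay within counting error for both classes. The 28 to 32 nt share there was 75.9% (Wilson interval 65.9 to 83.6), against 79.0% of the other nuclear reads. The tRF-3 share was 5.75% (2.48 to 12.8), from 5 reads, against 4.48%. Nicotine 1, with 33 proline reads, differed most, at 27.3% against 76.6% and 54.5% against 7.09%. Without nicotine 1 the mean differences were -17.2 and 10.3 points. The class differences depended on glycine tRNAs, which supply most listed reads. Without glycine fragments the other nuclear reads held 27.3% ± 7.71 fragments of 28 to 32 nt, and the proline share lay 32.2 points above it in 6 of 6 libraries (SD, n = 6, exact permutation adjusted p = 0.0469). The trailer share was then 20.6 points lower in 6 of 6 libraries (exact permutation adjusted p = 0.0469), and the tRF-3 share differed by 2.42 points, higher in 3 of 6 libraries (exact permutation adjusted p = 0.781).

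**Figure D2:**
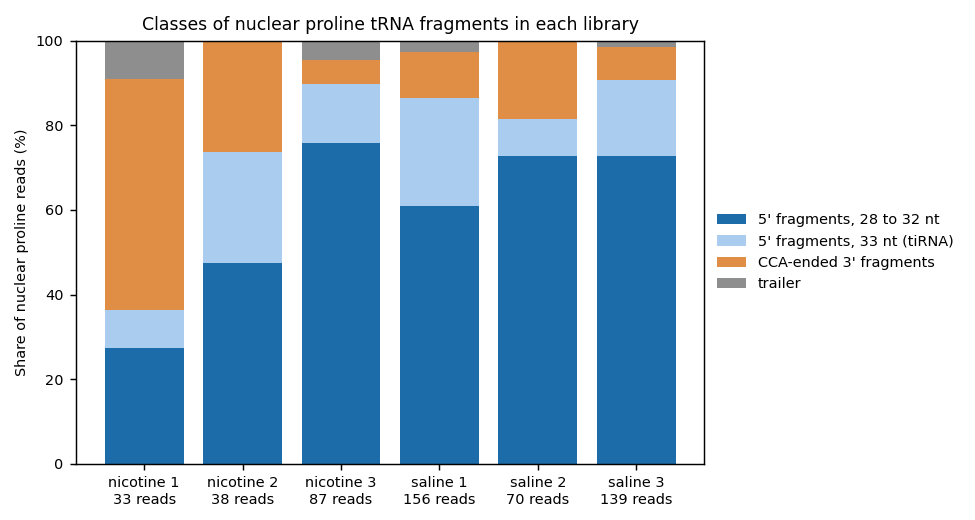
Share of nuclear proline reads (vertical axis, percent) in 4 classes for each library (bars, nicotine left), with the number of proline reads under each bar. The 28 to 32 nt fragments take 27.3% in nicotine 1 and 47.4% in nicotine 2, against 75.9% in nicotine 3 and 60.9% to 72.9% in the saline libraries.

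The class shares varied most among the nicotine libraries. The 28 to 32 nt fragments took 27.3%, 47.4% and 75.9% of the proline reads in nicotine libraries 1 to 3, against 60.9%, 72.9% and 72.7% in saline libraries. Nicotine 1 and 2 lay below every saline library and nicotine 3 above them. The 95% Wilson interval of nicotine 1 was 15.1 to 44.2, from 33 reads, and that of saline 1 was 53.1 to 68.2, from 156 reads. The tRF-3 share had the opposite order in the nicotine libraries, with 54.5%, 26.3% and 5.75% there and 10.9%, 18.6% and 7.91% in the saline libraries. The difference in the 28 to 32 nt share, -18.6 percentage points, was -7.19 without nicotine 1 and -31.5 without nicotine 3. Of the other nuclear reads, 28 to 32 nt fragments took 79.0% ± 2.40 in nicotine and 85.1% ± 3.11 in saline libraries, without overlap (n = 3, SD). The part of that library-wide difference in the proline shares was not tested.

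Single fragments were fitted with limma on log2(CPM + 1) over all 586 listed fragments that passed a low filter, and log2 fold changes are nicotine over saline on that scale. No fragment passed a Benjamini-Hochberg adjusted p of 0.05 (0.00%), and 41 had an unadjusted p under 0.05 (7.00%). edgeR on reads recovered from the CPM steps passed 0 of 221, with 13 at an unadjusted p under 0.05 (5.88%), and DESeq2 passed 0 of 615, with 17 (2.76%). All 11 proline fragments were in the limma fit, and 0 passed. The 28, 29 and 31 nt fragments of Pro-AGG had an unadjusted p under 0.05, all lower in nicotine, as did 11 of all 586 (1.88%); since the members were chosen with these values known, nothing is read from this count. The 28 nt fragment entered it through the saline libraries only. Of the 11 log2 fold changes 6 were below 0 and 5 above, with a median of -0.12, beside 208 below and 378 above with a median of 0.28 over all 586. A fragment reached the 20 CPM of the list with 2 or 3 reads in a nicotine library. In a saline library it needed 4 to 8. The part of this in the counts and median over all fragments was not tested. After TMM rescaling the proline median was -0.43, the median of all fragments was -0.02 and none of the 11 signs changed. With 1 library left out the proline median was not stable. It ran from -0.47 without nicotine 3 to 0.32 without saline 3, where 10 members had a value. The median of all fragments was 0.36 and 0.27 in these 2 fits. Without nicotine 1 the proline median was 0.01 and 3 signs changed. With CPM scaled to listed reads the sign of tiRNA-1:33-Pro-TGG-1 changed, from -0.12 to 0.12.

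The 5′ fragments of 28 to 32 nt held both the highest and the lowest nicotine means of the members, 129 CPM at 32 nt and 0 CPM at 28 nt. Their log2 fold changes had both signs. tRF-1:31-Pro-AGG-1-M4 had 22.0, 16.4 and 124 CPM in the nicotine libraries, from 2, 2 and 16 reads. In the saline libraries it had 66.7, 175 and 160.0 CPM, from 25, 27 and 33 reads. Nicotine 1 and 2 lay below every saline library and nicotine 3 within the saline range. Its log2 fold change was -1.75 (SE 0.64, limma adjusted p = 0.657).

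Nicotine 3 decided whether this fragment was called. Without it, limma passed 5 of 579 fragments, among them tRF-1:31-Pro-AGG-1-M4 with a log2 fold change of -2.64 (SE 0.62, adjusted p = 0.0155). Nicotine 3 held the highest nicotine value of this fragment, so leaving that library out widens the difference. Nothing is read from the call. With any other library left out the fragment did not pass, and its log2 fold change with 1 library left out ran from -2.64 to -1.21. Of the other 4 fragments passed without nicotine 3, 3 were also 31 nt 5′ fragments, of tRNAs His-GTG, Glu-TTC and Glu-CTC. The last was a 16 nt 5′ fragment of Ser-AGA. Among all other nuclear 5′ fragments of 31 nt in the fit with 6 libraries, 15 of 19 had a log2 fold change below 0, with a median of -0.30. At 32 nt these were 17 of 21 with a median of -0.52.

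tRF-1:32-Pro-AGG-1-M4, 1 base longer, had 33.03, 57.2 and 295 CPM in the nicotine libraries and 133, 77.7 and 175 CPM in the saline libraries. Nicotine 1 and 2 lay below every saline library, and nicotine 3 was the highest of all 6. Its mean was 129 ± 145 CPM over the nicotine libraries, against 129 ± 48.6 CPM over the saline libraries (n = 3 each, SD). A log2 fold change of -0.55 (SE 0.66) was 0.10 without nicotine 1 and -1.47 without nicotine 3. The 31 nt form took 40.0%, 22.2% and 29.6% of the reads of both lengths in nicotine libraries and 33.3%, 69.2% and 47.8% in saline libraries. Saline 2 was therefore the only library in which the 95% Wilson interval (53.6 to 81.4) put most of these reads at 31 nt. Over all other nuclear tRNAs that share was 32.1%, 44.2% and 48.1% in nicotine and 36.1%, 43.5% and 33.2% in saline libraries, a difference of 3.89 points. Without glycine it was 29.3%, 29.2% and 55.3% in nicotine and 35.6%, 55.5% and 62.8% in saline libraries, a difference of -13.4 points, so its direction depended on glycine.

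tRF-1:30-Pro-AGG-1-M4 had 22.0, 32.7 and 62.2 CPM in the nicotine libraries and 16.01, 25.9 and 48.5 CPM in the saline libraries, with overlap. The fitted log2 fold change was 0.37 (SE 0.68). The separately named tRF-1:30-Pro-TGG-2 had 22.0, 16.4 and 15.5 CPM in the nicotine libraries, from 2 reads each, and 5.34, 0 and 9.70 CPM in the saline libraries, from 2, 0 and 2 reads. Its nicotine values lay above all saline values, from 6 reads in the nicotine and 4 in the deeper saline libraries. The pooled values were 17.6 CPM (95% Poisson interval 6.44 to 38.2) in nicotine and 5.44 CPM (1.48 to 13.9) in saline libraries. Both proline fragments of 30 nt had a log2 fold change above 0. Among other nuclear 5′ fragments of 30 nt, 11 of 17 had a log2 fold change below 0, with a median of -0.30.

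The fragments of 28 and 29 nt carry M5 in their names. tRF-1:29-Pro-AGG-1-M5 had 0, 24.5 and 15.5 CPM in the nicotine libraries, from 0, 3 and 2 reads, and 18.7, 32.4 and 67.9 CPM in the saline libraries, from 7, 5 and 14 reads. Nicotine 2 lay within the saline range. Its log2 fold change of -2.25 (SE 1.05) was -0.79 without nicotine 1 and -1.14 with a pseudocount of 10 CPM. Among other nuclear 5′ fragments of 29 nt, 11 of 13 had a log2 fold change below 0, with a median of -0.19.

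No read of tRF-1:28-Pro-AGG-1-M5 was found in any of the 3 nicotine libraries, against 13.3, 19.4 and 29.1 CPM in the saline libraries, from 5, 3 and 6 reads. A count of 0 over the nicotine group allows up to 8.78 CPM at a floor of 3 reads, and up to 10.8 CPM by a two-sided 95% Poisson interval. The pooled saline value was 19.0 CPM (95% Poisson interval 10.4 to 31.9), so the intervals overlapped. Against the floor of 3 reads it was at least 2.17-fold lower in nicotine libraries, before the error of the 14 saline reads. With this fragment at that bound the median of the 11 log2 fold changes stayed at -0.12. In each single nicotine library the floor of 3 reads was 23.3 to 33.03 CPM, above or within the range of the saline values. Among other nuclear 5′ fragments of 28 nt, 9 of 11 had a log2 fold change below 0, with a median of -0.35.

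The 33 nt tiRNA reach into the anticodon loop, and each was read in all 6 libraries. tiRNA-1:33-Pro-TGG-1 had 22.0, 49.1 and 69.9 CPM in the nicotine libraries and 64.04, 19.4 and 77.6 CPM in the saline libraries. A log2 fold change of -0.12 (SE 0.64) was 0.34 without nicotine 1. tiRNA-1:33-Pro-CGG-1 had 11.01, 32.7 and 23.3 CPM in the nicotine libraries and 42.7, 19.4 and 43.6 CPM in the saline libraries, with a log2 fold change of -0.67 (SE 0.72). The groups overlapped for both. Saline 2 had the lowest saline value of both, and the highest saline value of the 31 nt fragment.

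The CCA-ended tRF-3 were highest in nicotine 1. tRF-58:75-Pro-AGG-1-M4, 18 nt long, had 143, 57.2 and 23.3 CPM in the nicotine libraries and 32.02, 51.8 and 29.1 CPM in the saline libraries. Nicotine 1 and 2 lay above every saline library and nicotine 3 below them. Its log2 fold change was 0.65 (SE 0.64), and it was 0.01 without nicotine 1. tRF-59:75-Pro-AGG-1-M4, 1 base shorter, had 55.0, 24.5 and 15.5 CPM in the nicotine libraries and 13.3, 32.4 and 24.2 CPM in the saline libraries. Its log2 fold change of 0.32 (SE 0.74) was -0.16 without nicotine 1. The same library had the highest tRF-3 share among the other nuclear reads, 7.09%, against 4.13% to 4.48% in the other nicotine libraries and 2.38% to 3.53% in the saline libraries. The part of that library-wide share in the proline values was not tested.

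The trailer tRF-+1:T28-Pro-CGG-1, the only member cut from a precursor, had 33.03, 0 and 31.1 CPM in the nicotine libraries, from 3, 0 and 4 reads. It had 10.7, 0 and 9.70 CPM in the saline libraries, from 4, 0 and 2 reads. Nicotine 2 and saline 2 had no read of it, and the groups overlapped.

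By the anticodon in the names, Pro-AGG held 75.8%, 68.4% and 79.3% of the proline reads in the nicotine libraries, against 70.5%, 91.4% and 79.1% in the saline libraries. The difference of -5.86 percentage points was -0.33 without saline 2. Pro-CGG had 43.7 ± 10.8 CPM in nicotine and 42.0 ± 19.6 CPM in saline libraries, and Pro-TGG had 65.0 ± 20.7 CPM in nicotine and 58.7 ± 35.2 CPM in saline libraries (n = 3, SD). The groups overlapped for all 3 anticodons. Summed over class and anticodon, 0 of 172 families passed in limma (0.00%), with 14 at an unadjusted p under 0.05 (8.14%). edgeR passed 0 of 103 families, with 8 at an unadjusted p under 0.05 (7.77%), and DESeq2 0 of 178, with 6 (3.37%). The family of Pro-AGG tRF-5 had 77.1, 131 and 497 CPM in nicotine and 248, 330.3 and 480.1 CPM in saline libraries, and a log2 fold change of -0.98 (SE 0.60, limma adjusted p = 0.542). Without nicotine 3 it was -1.75 (limma adjusted p = 0.0140), and without nicotine 1 it was -0.41. Nicotine 3 held the highest nicotine value of this family, so nothing is read from the fit without that library.

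Of the 11 members 2 had groups that did not overlap, the 28 nt fragment lower and the 30 nt Pro-TGG-2 fragment higher in nicotine. Each reached the 20 CPM of the list in 1 library only, which lay in the group where it was higher. Nothing is read from this count. Over all 586 fragments 1.54% were lower and 12.6% higher without overlap. Fewer reads were enough to list a fragment in the nicotine than in the saline libraries, and the part of this in these shares was not tested.

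The proline 5′ fragments were then set beside the same class of other nuclear tRNAs. Summed over 28 to 32 nt, proline had 99.1, 147 and 513 CPM in the nicotine libraries and 253, 330.3 and 489.8 CPM in the saline libraries. The log2 ratio of group means was -0.50. Among 12 other parents it was below 0 for 7 and above 0 for 5, with a median of -0.08, and it was lower than for proline for 3, His, Cys and Glu. After TMM rescaling proline had -0.77 and the others a median of -0.39, with the same 7 and 5. By mean level proline ranked sixth of the 13, at 253 ± 226 CPM in nicotine and 358 ± 121 CPM in saline libraries (n = 3, SD). Whether proline differed from the other parents in this ratio was not tested.

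**Figure D3:**
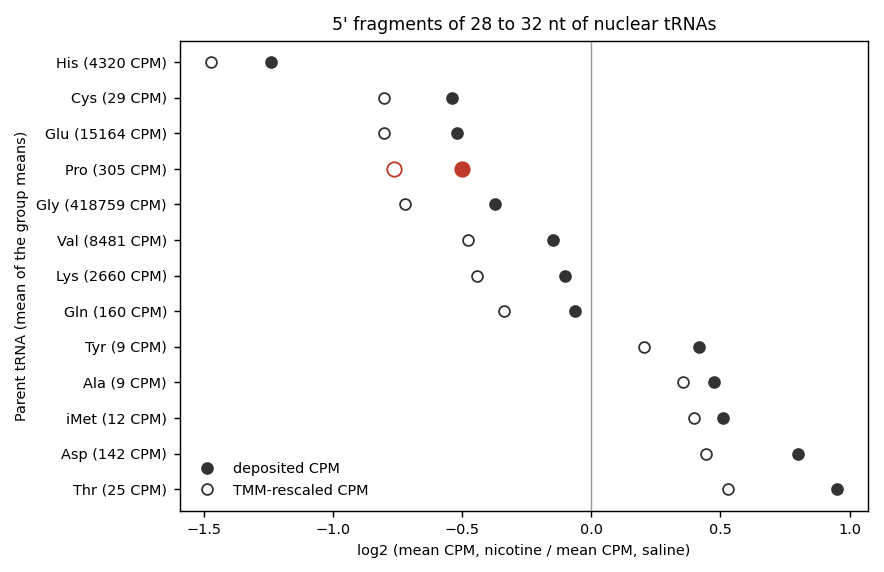
Log2 ratio of the mean CPM in nicotine libraries to that in saline libraries (horizontal axis) for 5′ fragments of 28 to 32 nt summed by nuclear parent tRNA, on deposited CPM (filled) and TMM-rescaled CPM (open). Proline (red) lies at -0.50 and -0.77, below His, Cys and Glu at the top on deposited CPM.

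The profile of the proline 5′ fragments over the 6 libraries was most like those of histidine and glutamate 5′ fragments. Of 94 families with a mean of at least 100 CPM, Pearson's r of log2(CPM + 1) was highest for the tiRNA of His-GTG (0.929), the tRF-5 of His-GTG (0.915) and the tRF-5 of Glu-CTC (0.903). These values are descriptions over 6 libraries, and the families compared come from the same libraries, so each point shares its library and depth between them. The tRF-5 of His-GTG had 1288, 1276 and 5299 CPM in the nicotine libraries and 2554, 7389 and 8379 CPM in the saline libraries. Those of Glu-CTC had 5339.8, 7646 and 14686 CPM in nicotine and 10196, 16242 and 11924 CPM in saline libraries. In all of these families and in proline, nicotine 1 and 2 had the lowest values of the 6 libraries.

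**Figure D4:**
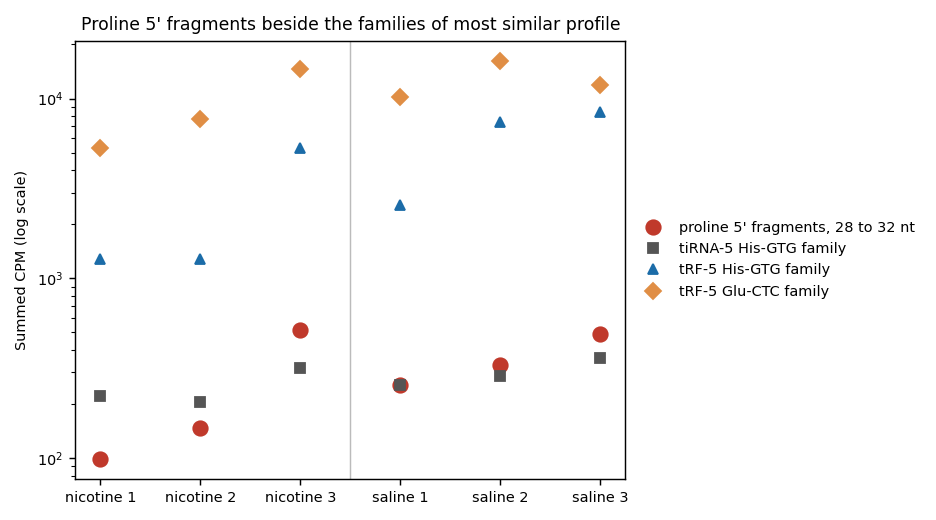
Summed CPM (vertical axis, log scale) of the proline 5′ fragments of 28 to 32 nt and of the 3 families with the most similar profile in each library, nicotine left of saline. Nicotine 1 and 2 are lowest for each, and nicotine 3 lies among the saline libraries or above them.

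Mitochondrial proline tRNA (Pro-TGG) is a separate gene product of the mitochondrial genome and had 9 listed fragments. Its summed level was 429, 449.8 and 489.5 CPM in the nicotine libraries and 326, 434 and 402 CPM in the saline libraries. The lead fragment, tRF-1:30-chrM.Pro-TGG, had 132, 311 and 295 CPM in nicotine and 211, 246 and 233 CPM in saline libraries, a log2 fold change of 0.00 (SE 0.41). For its 28 to 32 nt fragments the sum was 308, 425 and 466 CPM in nicotine and 302, 382 and 354 CPM in saline libraries. Nicotine 1 lay within the saline range of this sum, and nicotine 2 and 3 lay above it.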

How the data were processed

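Small RNA libraries of 6 rat hippocampi were made by adapter ligation, PCR and gel sizing, per the labels' protocols. FastQC, cutadapt and Bowtie are named, with no version, in the submitters' processing notes. Genome build and tRNA source were not given in the sources used here, so fragment names are used as deposited. The authors deposited CPM, whose unit is missing from the header of 2 files and was read from the values. All values (100%) were whole multiples of 1 read within 0.001 reads, so read numbers and totals were recovered. Groups and rat numbers come from the sample titles, and p-values measure the spread between these libraries. limma 3.58.1 (trend, robust, R 4.3.3) was fitted, two-sided, on log2(CPM + 1). Fragments needed 1 CPM or more in 3 or more libraries to enter. edgeR 4.0.16 and DESeq2 1.42.0 on recovered reads, other scalings, pseudocounts, filters, a replicate block and leaving out each library were alternatives. The limma script was tested on simulated data with large planted changes and the same assumed dispersion for every fragment. That test does not give the power of the fit in these libraries. Exact permutation tests flipped signs within libraries. All 11 members are described, and the members, lists and rules were chosen with earlier results of these data known. Classes follow start, end and length in the names. Sequences of tRNAs were not used here.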

Additional observations from a re-analysis of the deposited data

How the results depend on the processing

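The limma count of 0 called fragments held under TMM rescaling, scaling to listed reads, pseudocounts of 0.5 and 10 CPM, no filter, a filter of 20 CPM in 3 libraries, edgeR and DESeq2, and the count of 0 called families under those and the replicate block. With the rat number as a replicate block 1 fragment passed, a 31 nt 5′ fragment of His-GTG. The numbers were not taken as pairs, since the correlation of same-numbered deviations was 0.0867, 0.109 and 0.161, although each library correlated best with its own number. With a library left out 0 to 5 fragments and 0 to 2 families passed. Without glycine reads in the total the difference in the proline share of listed reads was -0.0830 percentage points, against 0.00286 with them and -0.0236 to 0.0230 with a library left out. Glycine supplies most listed reads, so the total without it is far smaller and the sizes of these differences cannot be compared. Of the summed CPM the difference was -167 after TMM rescaling and 28.6 with CPM scaled to listed reads, and it ran between -178 and 15.2 over the fits that left out a library. The differences in the 28 to 32 nt share and the Pro-AGG share of proline reads ran from -31.5 to -7.19 and from -10.8 to -0.33 points with a library left out. Against the other nuclear reads without glycine, the proline difference reversed to 32.2 points for 28 to 32 nt fragments, was 2.42 for tRF-3 and reached -20.6 for the trailer, so what the rest contains sets these differences. Against all other nuclear reads, with a library left out, these differences ran from -26.5 to -17.2, from 10.3 to 19.5 and from -3.42 to -1.85, and 5 libraries cannot give an exact p under 0.0625. edgeR's filter kept 2 proline fragments, with log2 fold changes of -1.44 at 31 nt and -0.28 at 32 nt. No member name carries a base mismatch, so leaving such names out changed nothing. The 523 proline reads in all leave wide counting intervals for members with a few reads per library.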
